A study of Rattus norvegicus with 17 samples.

Results

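The S100 genes encode small calcium-binding proteins with a pair of EF-hand motifs, several of which act as alarmins once released from stressed cells. The set described here was chosen by name, as S100a3, S100a4, S100a6, S100a7a, S100a8, S100a9, S100a10, S100a11, S100a14 and S100a16. Of these 10 genes, 9 are in the table of 17251 genes used here, and S100a14 was not analysed here. All 9 passed the filter of at least 1 TPM in at least 3 rats. TPM is a read abundance scaled within each library and corrected for transcript length, so levels of different genes can be set side by side. Differences between genes in how well their reads map were not tested. S100A8 and S100A9 pair as calprotectin, a protein abundant in neutrophils and monocytes and also made by stressed keratinocytes, and bind the receptors TLR4 and RAGE. S100A7 (psoriasin) is an epithelial alarmin. S100A4, S100A6, S100A10 and S100A11 are mostly intracellular and bind cytoskeletal proteins and annexins, while S100A3 is a protein of the hair cuticle.

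The meibomian gland (MG), the lipid-secreting gland of the eyelid, was taken from 17 female Sprague-Dawley rats and sequenced as bulk RNA, 1 library per rat. P1.hMR rats carry the human mineralocorticoid receptor (MR), the aldosterone receptor, under the P1 promoter of its own gene NR3C2, so the transgene is not limited to the gland, and WT rats lack it. The groups were Control WT (n = 4) and Control P1.hMR (n = 5), both without UVB, and UVB WT (n = 3) and UVB P1.hMR (n = 5), whose shaved upper eyelids received UVB on 5 days. The labels give an age of 10 to 12 weeks for every rat, and shaving of the control eyelids is not stated. The comparisons ask how UVB changes these transcripts in each genotype and whether MR overexpression changes their level or their UVB response. The values of Scd (23994 to 31198 TPM) and Awat2 (6495 to 12062 TPM), which make meibomian lipids, were high in every rat. Acta1 of skeletal muscle (530 to 976 TPM) and 12 hair shaft genes (summed level 196 to 868 TPM) were also measured in every rat. In such bulk tissue, fewer cells of a type and less RNA per cell cannot be told apart.

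The S100 genes lie on rat chromosome 2. In the RefSeq order of protein-coding genes, S100a14, S100a16, S100a3, S100a4, S100a5, S100a6, S100a7a, S100a8 and S100a9 follow each other, with S100a11 and S100a10 next to each other beyond 58 further genes. One of these is the related S100a7l2, and whether its reads were shared with S100a7a was not tested. S100a3 and S100a4 are thus neighbours. The 250 bases before the start of 5 genes are shown, which are the genes called under UVB in at least 1 genotype below: S100a3 (chr2:178384263-178384512, plus strand), S100a4 (chr2:178388279-178388528, plus strand), S100a6 (chr2:178398287-178398536, plus strand), S100a7a (chr2:178448733-178448982, plus strand) and S100a9 (chr2:178490623-178490872, minus strand), from RefSeq on the GRCr8 build, 5′ to 3′ on the strand of the gene. Capitals mark a match to a TATA box.
S100a3: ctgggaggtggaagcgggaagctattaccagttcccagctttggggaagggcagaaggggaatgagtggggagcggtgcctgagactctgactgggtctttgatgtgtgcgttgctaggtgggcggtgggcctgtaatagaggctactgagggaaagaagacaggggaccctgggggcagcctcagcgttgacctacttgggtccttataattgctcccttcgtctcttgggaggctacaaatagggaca
S100a4: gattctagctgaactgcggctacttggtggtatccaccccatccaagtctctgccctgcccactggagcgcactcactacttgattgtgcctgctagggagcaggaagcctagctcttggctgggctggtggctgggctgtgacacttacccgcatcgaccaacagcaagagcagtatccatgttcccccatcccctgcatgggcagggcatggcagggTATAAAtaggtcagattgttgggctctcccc
S100a6: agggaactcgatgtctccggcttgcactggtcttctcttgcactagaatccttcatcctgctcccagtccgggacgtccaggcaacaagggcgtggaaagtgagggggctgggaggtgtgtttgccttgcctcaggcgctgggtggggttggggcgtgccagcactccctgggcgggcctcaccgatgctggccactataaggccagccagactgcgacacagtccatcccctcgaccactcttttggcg
S100a7a: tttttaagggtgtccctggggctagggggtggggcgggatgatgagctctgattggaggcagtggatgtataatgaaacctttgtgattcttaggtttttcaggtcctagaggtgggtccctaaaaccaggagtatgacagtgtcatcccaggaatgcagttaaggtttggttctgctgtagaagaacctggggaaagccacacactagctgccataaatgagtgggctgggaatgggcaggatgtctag
S100a9: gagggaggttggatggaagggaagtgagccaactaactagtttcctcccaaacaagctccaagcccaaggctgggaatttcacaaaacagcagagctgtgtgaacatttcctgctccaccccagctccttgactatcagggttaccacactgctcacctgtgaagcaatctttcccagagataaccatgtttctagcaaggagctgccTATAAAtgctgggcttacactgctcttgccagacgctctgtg
The TATA box (TATAAA, searched on the strand of the gene) was found in S100a4, 31 to 26 bases before the start, and in S100a9, 42 to 37 bases before it, among the 8 of 10 S100 genes with an entry in that set. It was present in 8.06% of the 33469 windows of that length. The AP-1 site (TGANTCA), the half-site of steroid hormone receptors (AGAACA) and the palindrome of that half-site (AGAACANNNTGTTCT) were searched on both strands. None of the 3 was found in the 8 windows, against 6.34%, 17.5% and 0.012% of all windows. A missing match says only that these letters are not in the window.

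The 9 S100 transcripts spanned a wide range of levels in the unexposed gland. S100a8 and S100a11 were the most abundant in Control WT rats, at 1350 ± 76.2 and 1340 ± 150 TPM (SD, n = 4), and their ranges overlapped. S100a16, S100a10 and S100a6 followed at 654 ± 36.5, 579 ± 75.8 and 511 ± 63.0 TPM, each overlapping the next. S100a9 lay below them at 336 ± 24.3 TPM, without overlap. S100a3 (108 ± 15.7 TPM) and S100a4 (99.2 ± 12.2 TPM) overlapped, and S100a7a was far lower at 3.91 ± 0.739 TPM. Control P1.hMR rats had the same order except that S100a11 and S100a8 changed places, with overlapping ranges. Under UVB, S100a6 took the third place in both genotypes. Its range overlapped those of S100a16 and S100a10 in UVB WT and that of S100a10 in UVB P1.hMR. S100a4 lay above S100a3 with no overlap. S100a8 then also lay above S100a11 without overlap, at 1441 to 1564 against 1083 to 1420 TPM in UVB WT and at 1519 to 2030 against 1028 to 1494 TPM in UVB P1.hMR. Together the 9 transcripts made up 0.604% ± 0.0304 of all listed TPM in Control WT, 0.605% ± 0.0221 in Control P1.hMR, 0.669% ± 0.0348 in UVB WT and 0.736% ± 0.0802 in UVB P1.hMR.

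**Figure D1:**
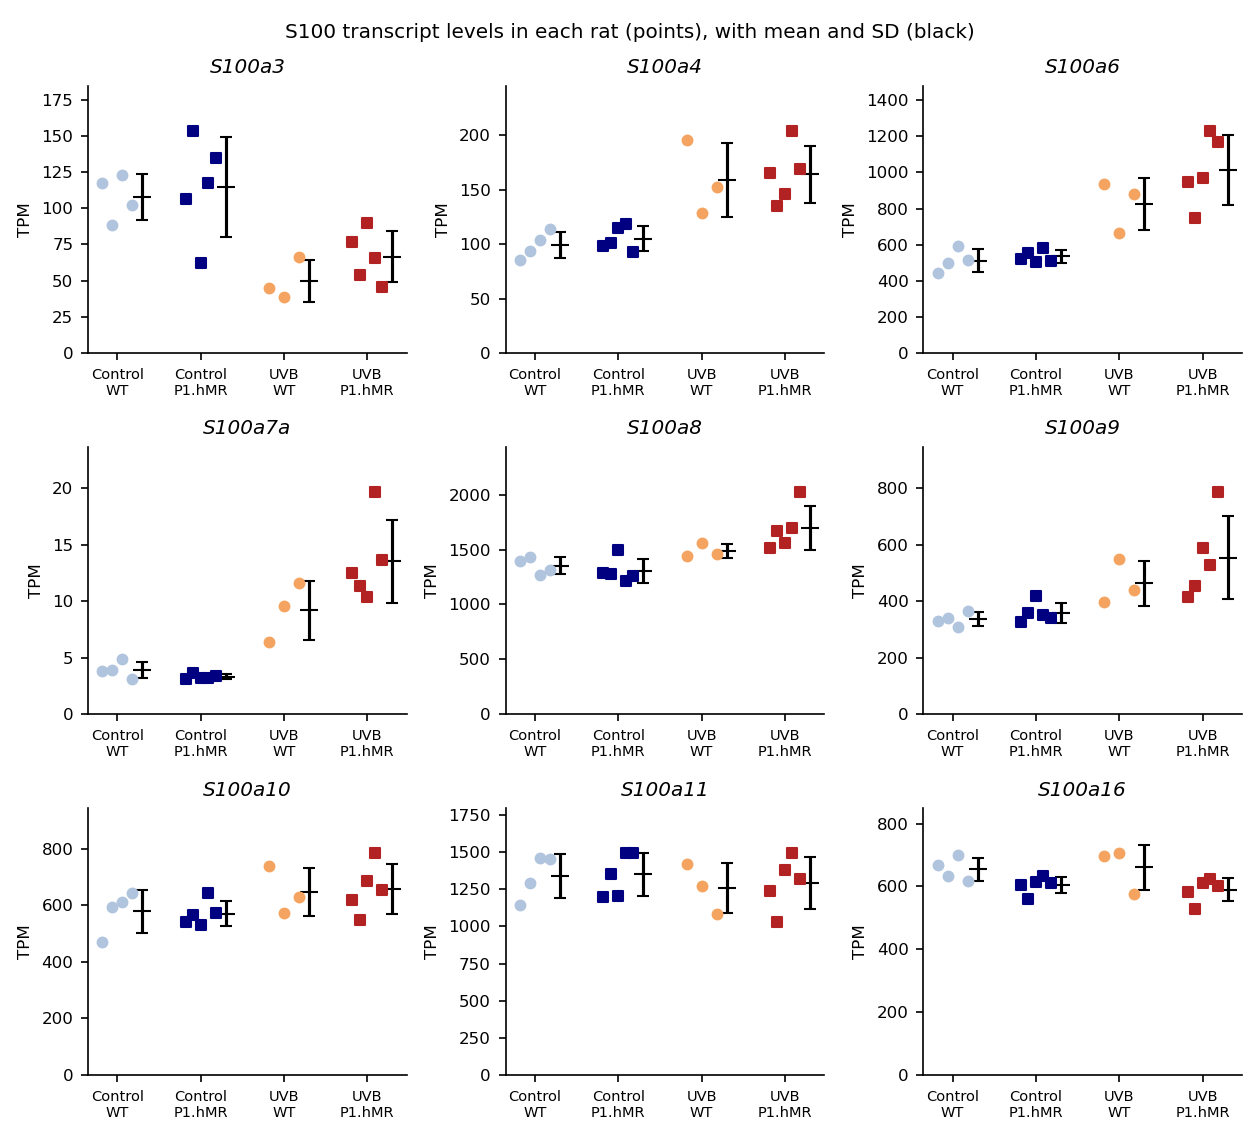
TPM of the 9 S100 transcripts in each rat (points; y axes start at 0), by group, with the group mean and SD in black. S100a4, S100a6 and S100a7a were higher in every UVB rat than in any control rat, and S100a7a reached 19.7 TPM in 1 UVB P1.hMR rat, while S100a10, S100a11 and S100a16 overlapped between groups.

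UVB raised S100a4, S100a6 and S100a7a in both genotypes and S100a9 in P1.hMR animals, and lowered S100a3 in both. Genes were called with limma at a Benjamini-Hochberg adjusted p under 0.05 over the 13105 genes tested and a difference of at least 0.5 in log2(TPM + 1), the scale of every fold change given here. In WT rats, 3 of 9 S100 genes were called higher and 1 lower, where 3.92% and 3.98% of all genes tested were called higher and lower. In P1.hMR rats, 4 of 9 were called higher and 1 lower, where 5.05% and 5.71% of all genes were. The median log2 fold change of the 9 genes was 0.16 in WT and 0.37 in P1.hMR animals, against 0.01 and -0.02 over all genes tested.

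S100a7a, the rat gene named after psoriasin, had the largest rise of the set and the lowest level. It was at 3.81, 3.90, 4.87 and 3.07 TPM in Control WT and at 6.38, 9.57 and 11.6 TPM in UVB WT. It was at 3.06, 3.67, 3.17, 3.23 and 3.37 TPM in Control P1.hMR and at 12.5, 11.3, 10.4, 19.7 and 13.7 TPM in UVB P1.hMR. Every UVB rat lay above every control rat, and 3 of 5 UVB P1.hMR rats lay above the highest UVB WT rat. The rise was 2.04-fold in WT (log2 fold change 1.03 ± 0.19 SE, limma adjusted p = 0.00157) and 3.30-fold in P1.hMR animals (1.72 ± 0.16, adjusted p = 1.44e-06).

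S100a9 and S100a8, the subunits of calprotectin, moved less. S100a9 was at 331, 341, 307 and 366 TPM in Control WT and at 398, 550 and 440 TPM in UVB WT. It was at 324, 357, 417, 352 and 340 TPM in Control P1.hMR and at 413, 452, 587, 529 and 788 TPM in UVB P1.hMR. The WT groups did not overlap, while the lowest UVB P1.hMR rat lay just under the highest Control P1.hMR rat, and UVB P1.hMR 5 was the highest of all. S100a9 rose 1.51-fold in P1.hMR animals (log2 fold change 0.59 ± 0.14 SE, limma adjusted p = 0.00282). Without UVB P1.hMR 5 that difference was 0.46, with an adjusted p of 0.00433, which is below the fold threshold. In WT rats the difference of S100a9 was 0.45 ± 0.17 (1.36-fold, limma adjusted p = 0.0636), which missed the call.

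S100a8 was at 1399, 1435, 1271 and 1310 TPM in Control WT and at 1441, 1564 and 1460 TPM in UVB WT. It was at 1286, 1275, 1499, 1210 and 1260 TPM in Control P1.hMR and at 1519, 1668, 1562, 1698 and 2030 TPM in UVB P1.hMR. The groups did not overlap within either genotype, although Control WT 2 and UVB WT 1 were nearly level, and UVB P1.hMR 5 was again the highest. The difference of S100a8 was 0.14 ± 0.09 in WT (1.10-fold, limma adjusted p = 0.288) and 0.37 ± 0.07 in P1.hMR animals (1.29-fold, adjusted p = 0.000897), which passed the p threshold and not the fold threshold. S100a8 exceeded S100a9 in every rat, by 4.04-fold ± 0.308 in Control WT, 3.65-fold ± 0.196 in Control P1.hMR, 3.26-fold ± 0.393 in UVB WT and 3.16-fold ± 0.531 in UVB P1.hMR (SD over rats, no test). Both transcripts together held 34.0% ± 2.97 of the S100 TPM in Control WT and 33.7% ± 3.19 in Control P1.hMR. They held 35.2% ± 3.59 in UVB WT and 37.2% ± 3.73 in UVB P1.hMR, and the ranges of the groups overlapped.

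S100a6 (calcyclin) and S100a4, proteins linked to cell growth, motility and the cytoskeleton, rose in both genotypes. S100a6 was at 441, 496, 594 and 514 TPM in Control WT and at 937, 664 and 880 TPM in UVB WT. It was at 521, 553, 503, 583 and 511 TPM in Control P1.hMR and at 945, 749, 971, 1232 and 1166 TPM in UVB P1.hMR. No UVB rat overlapped a control rat. The rise was 1.61-fold in WT (log2 fold change 0.69 ± 0.15 SE, limma adjusted p = 0.00426) and 1.87-fold in P1.hMR animals (0.90 ± 0.12, adjusted p = 3.95e-05).

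S100a4 was at 85.9, 93.5, 104 and 114 TPM in Control WT and at 195, 128 and 152 TPM in UVB WT. It was at 98.1, 101, 115, 119 and 92.8 TPM in Control P1.hMR and at 165, 136, 146, 205 and 169 TPM in UVB P1.hMR. Here too the UVB and control rats did not overlap, and UVB WT 1 was the highest of the WT rats. S100a4 rose 1.58-fold in WT (log2 fold change 0.66 ± 0.15 SE, limma adjusted p = 0.00501) and 1.55-fold in P1.hMR animals (0.63 ± 0.12, adjusted p = 0.000678). Without UVB WT 1, the difference in WT was 0.50, just under the fold threshold, with an adjusted p of 0.0289.

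S100a10, the partner of annexin A2, S100a11, which binds annexin A1, and S100a16 passed no call in either genotype. S100a10 differed by 0.16 (95% confidence interval -0.09 to 0.42) in WT and by 0.20 (-0.01 to 0.41) in P1.hMR animals. S100a11 differed by -0.09 (-0.36 to 0.18) and -0.07 (-0.29 to 0.15), and S100a16 by 0.01 (-0.14 to 0.16) and -0.04 (-0.17 to 0.09). UVB and control rats overlapped for each of the 3 in both genotypes. The log2 ratio of S100a10 to Anxa2, the gene of its partner, was -0.78 ± 0.07 in Control WT, -0.84 ± 0.07 in Control P1.hMR, -0.75 ± 0.07 in UVB WT and -0.77 ± 0.04 in UVB P1.hMR (SD over rats, no test).

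S100a3, the hair cuticle member, was the only one of the 9 called lower. It was at 118, 88.1, 123 and 102 TPM in Control WT and at 45.3, 38.4 and 66.2 TPM in UVB WT. It was at 106, 154, 62.2, 117 and 135 TPM in Control P1.hMR and at 76.7, 54.2, 90.0, 65.4 and 45.6 TPM in UVB P1.hMR. The WT groups did not overlap, while Control P1.hMR 3 lay within the range of the UVB P1.hMR rats. S100a3 fell to 0.460 of its control level in WT (log2 fold change -1.12 ± 0.27 SE, limma adjusted p = 0.00824) and to 0.590 in P1.hMR animals (-0.76 ± 0.22, adjusted p = 0.0129).

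Hair shaft transcripts moved with S100a3. After subtracting each group mean over the 17 rats, the genes most like S100a3 among 9935 with a mean of at least 5 TPM were the hair keratins Krt32 (r = 0.98), Krt85 (0.97) and Krt35 (0.97), and the 12 hair shaft genes had r between 0.33 and 0.98. These values are a measure of likeness over rats of one tissue, with no test. The log2 ratio of S100a3 to Krt32 was 2.04 ± 0.05 in Control WT, 2.10 ± 0.09 in Control P1.hMR, 2.05 ± 0.07 in UVB WT and 2.06 ± 0.08 in UVB P1.hMR (SD over rats, no test). Krt32 itself was lower under UVB, with a log2 fold change of -1.08 in WT (limma adjusted p = 0.0100) and -0.70 in P1.hMR animals (adjusted p = 0.0212). Its call was lost without UVB WT 2 in WT and without any 1 of Control P1.hMR 2, Control P1.hMR 5, UVB P1.hMR 2 or UVB P1.hMR 5 in P1.hMR animals. Of 12 hair shaft genes, 7 were called lower in WT and 5 in P1.hMR animals and none higher, with medians of -1.02 and -0.63. In WT these included Krt82 (-1.13), a keratin of the hair cuticle. With the mean level of the hair shaft genes as a covariate, S100a3 differed by -0.28 in WT (limma adjusted p = 0.348) and by -0.24 in P1.hMR animals (adjusted p = 0.190), and neither was called. The hair shaft genes moved with S100a3 and were themselves lower under UVB, so this fit was bound to shrink its difference. It cannot tell whether S100a3 changed apart from them. With the same covariate, S100a9 in P1.hMR animals was at 0.48, below the fold threshold, and 3 of 9 members were called in that genotype. Because the covariate was itself lower under UVB, it can take up part of any UVB difference, and these losses of a call cannot be read further.

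**Figure D2:**
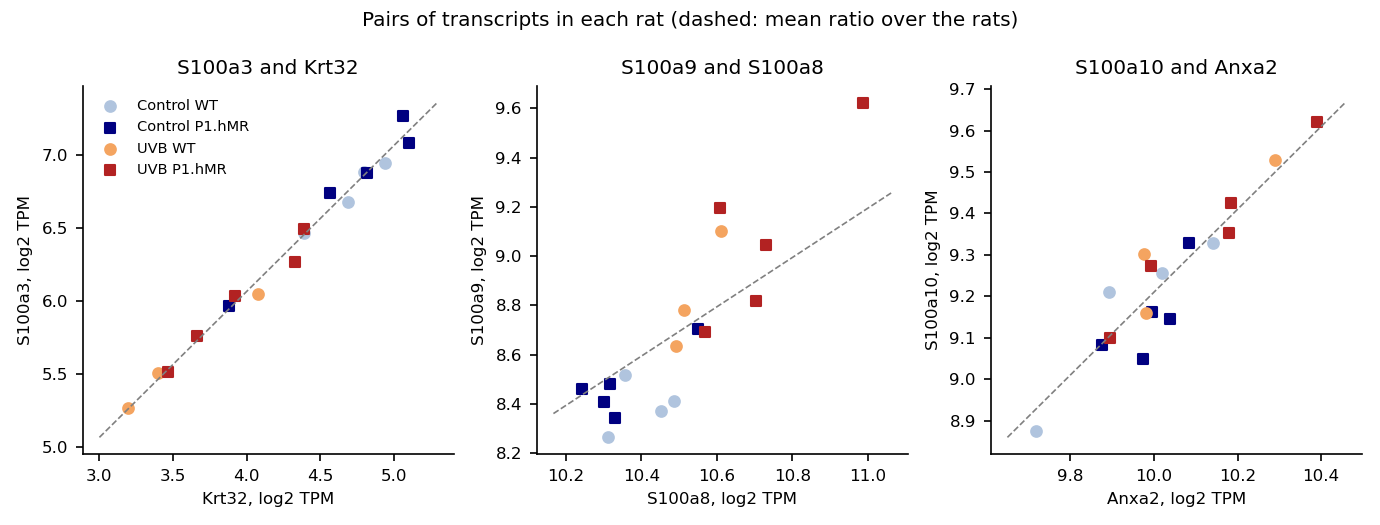
Log2 TPM of S100a3 against Krt32 (left), S100a9 against S100a8 (middle) and S100a10 against Anxa2 (right), 1 point per rat; colours and shapes give the group, and the dashed line is the mean ratio over the rats. S100a3 and Krt32 lay along 1 line in all 4 groups, while S100a9 lay above the line in several UVB rats.

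MR overexpression gave no called difference in any of the 9 S100 genes. With UVB P1.hMR set against UVB WT, 0 of 9 were called, where 0.0229% of all genes tested were. At an unadjusted limma p under 0.05, 3 of 9 differed, where 10.3% of all genes did. These were S100a7a, which was 1.43-fold higher in UVB P1.hMR (log2 fold change 0.51, limma adjusted p = 0.336), S100a8 (1.13-fold higher, limma adjusted p = 0.481) and S100a16 (0.895 of the WT level, limma adjusted p = 0.446). S100a9 was 1.18-fold higher in UVB P1.hMR, with a log2 difference of 0.23 (95% confidence interval -0.10 to 0.57, limma adjusted p = 0.652), and the ranges overlapped. S100a6 was 1.22-fold higher (0.29, -0.01 to 0.58, adjusted p = 0.506). Without UVB, 0 of 9 were called and 0 passed an unadjusted p under 0.05, where 0.00763% and 4.03% of all genes tested did. The largest of those differences was that of S100a7a, at -0.18 (-0.53 to 0.17).

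The UVB response itself was compared between the genotypes by the interaction of genotype and UVB. By limma, 0 of 9 S100 genes and 0% of all genes tested were called. At an unadjusted p under 0.05, 1 of 9 differed, where 6.92% of all genes did. That gene was S100a7a, whose log2 response was larger in P1.hMR animals by 0.70 (95% confidence interval 0.18 to 1.21, limma adjusted p = 0.704). The responses of S100a8 and S100a9 differed by 0.23 (-0.01 to 0.48) and 0.15 (-0.31 to 0.60), with adjusted p-values of 0.725 and 0.925. S100a9 passed its call in one genotype alone, and the difference between the genotypes was not shown by this test.

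**Figure D3:**
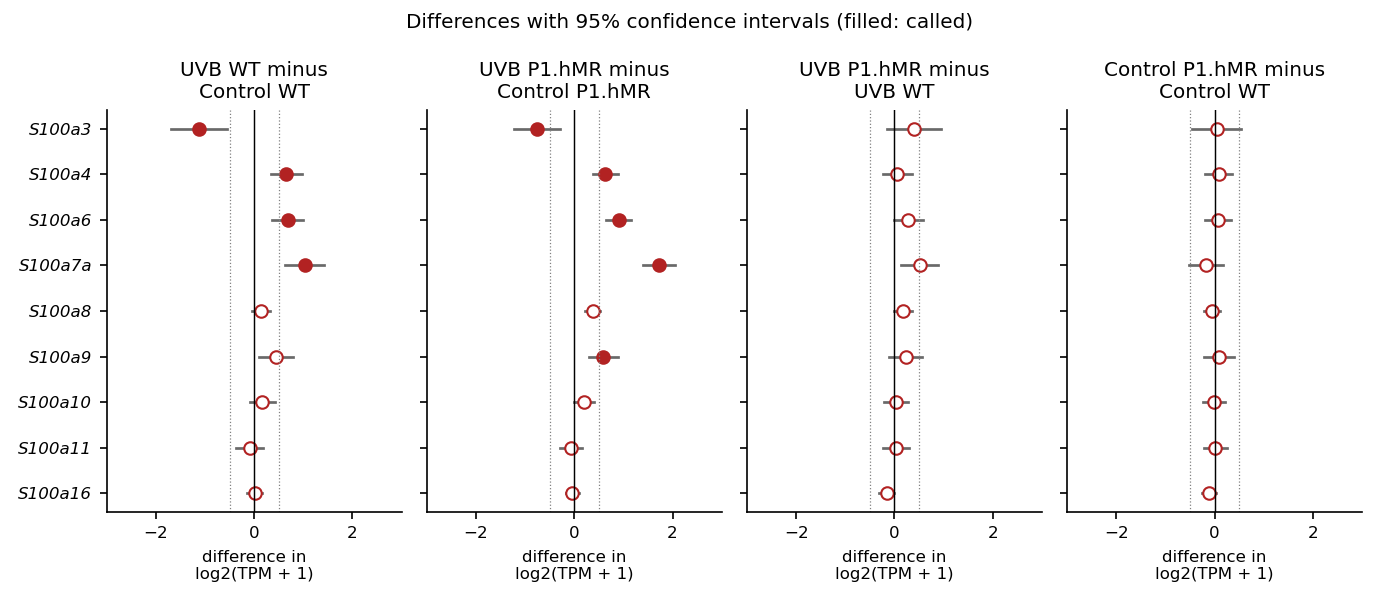
Differences in log2(TPM + 1) of the 9 S100 transcripts in 4 comparisons, with 95% confidence intervals from limma; filled points were called and dotted lines mark 0.5 in either direction. Filled points appear only in the 2 UVB comparisons, 4 in WT and 5 in P1.hMR animals.

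The S100 genes were next set against markers of epithelium and leukocytes across rats, within the 9 control and the 8 UVB rats. Ptprc (CD45), which all leukocytes express, was low, at 1.38 to 3.62 TPM. Krt17, a keratin of ducts and of wounded epithelium, was at 1146 to 1946 TPM. Of 36 correlations computed, 0 passed Benjamini-Hochberg adjustment over the 13104 other genes, and 3 Pearson correlations had an unadjusted exact permutation p under 0.05. Of all 13104 genes, 2137 reached that unadjusted p with Ptprc in control rats and 1683 in UVB rats. With Krt17, 410 did in control rats and 1086 in UVB rats. The S100 genes are therefore not set apart by these counts. The closest for Ptprc was S100a4 in control rats, with Pearson r = 0.77 (two-sided exact permutation p = 0.0156, adjusted p = 0.213) and Spearman rho = 0.63 (exact permutation p = 0.0760, adjusted p = 0.460). Its r was 0.53 without the 2 rats farthest from the median of Ptprc. S100a10 in control rats had r = 0.71 (exact permutation p = 0.0325, adjusted p = 0.266) and rho = 0.55 (exact permutation p = 0.133, adjusted p = 0.541), and r fell to 0.14 without the 2 farthest rats, so that it rested on them.

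For Krt17, S100a6 in UVB rats had r = 0.81 (two-sided exact permutation p = 0.0179, adjusted p = 0.543) and rho = 0.60 (exact permutation p = 0.132, adjusted p = 0.856), with r = 0.35 without the 2 farthest rats. S100a7a in UVB rats had rho = 0.76 with Ptprc (exact permutation p = 0.0368, adjusted p = 0.447) beside r = 0.46 (exact permutation p = 0.242, adjusted p = 0.620) and r = 0.80 without the 2 farthest rats. For the calprotectin genes, no correlation with Ptprc reached an unadjusted p under 0.05. S100a8 had r = -0.53 with Ptprc in control rats and 0.30 in UVB rats (exact permutation p = 0.144 and 0.410, adjusted p = 0.461 and 0.748), with rho = -0.43 and 0.52 (exact permutation p = 0.250 and 0.197) and r = -0.58 and 0.60 without the 2 farthest rats. S100a9 had r = 0.39 and -0.09 (exact permutation p = 0.302 and 0.808, adjusted p = 0.625 and 0.936), with rho = 0.62 and 0.00 (exact permutation p = 0.0857 and 1.00) and r = 0.28 and 0.51 without the 2 farthest rats. With Krt17, S100a8 had r = -0.37 in control rats and 0.20 in UVB rats (exact permutation p = 0.323 and 0.654). S100a9 had r = -0.52 and 0.32 with Krt17 (exact permutation p = 0.149 and 0.438). Without the 2 farthest rats, r with Krt17 was -0.52 and 0.55 for S100a8, and -0.49 and 0.62 for S100a9. These correlations therefore did not separate an epithelial from a leukocyte group of S100 genes.

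**Figure D4:**
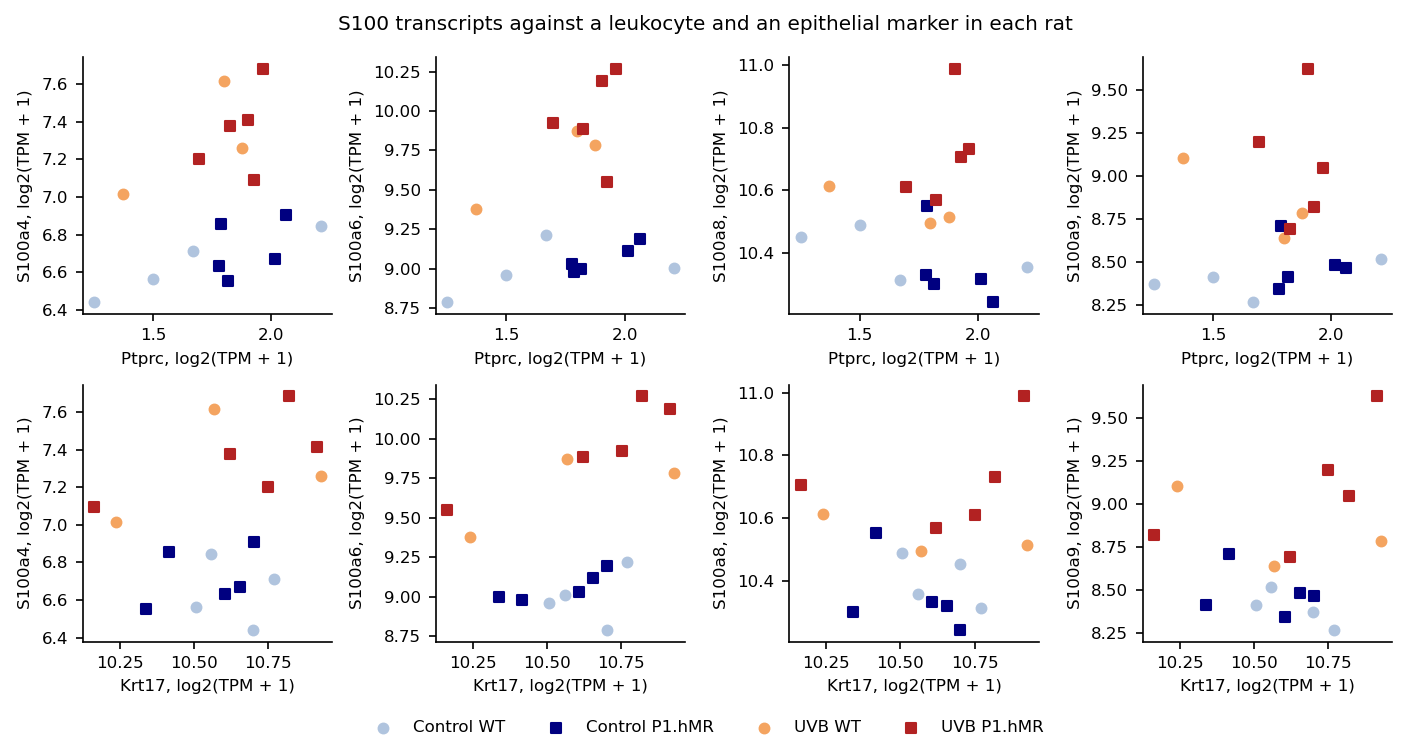
Log2(TPM + 1) of S100a4, S100a6, S100a8 and S100a9 (y axes) against Ptprc (top) and Krt17 (bottom), 1 point per rat, coloured by group. UVB rats lay higher than control rats for S100a4 and S100a6 at similar Ptprc and Krt17 levels, and the highest S100a8 and S100a9 points belong to UVB P1.hMR 5.

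The likeness of single members over the 17 rats, after subtracting group means, gave for S100a4 the genes Pnp (r = 0.95), Cd63 (0.93) and Hmgb2 (0.91). For S100a8 it gave Ankib1 (0.77), Wdr73 (0.77) and S100a9 (0.75), and for S100a9 it gave Dtnbp1 (0.83), AABR07048031.1 (0.81) and Rgcc (0.76). The genes most like S100a7a were Ints5 (0.80), Tab3 (0.79) and Rapgef6 (0.78). S100a8 thus had its own subunit partner among its 3 nearest genes, with rho = 0.50. Without that subtraction, their r was 0.48 within control rats and 0.84 within UVB rats. UVB P1.hMR 5 had the highest S100a8 and S100a9 of all rats (2030 and 788 TPM). How far the likeness of S100a8 and S100a9 rests on that rat was not tested. Only positive r was ranked, and S100a8 and S100a3 had r = -0.78 and rho = -0.71 after subtracting group means. No test was made on any of these values, and the 3 genes named for each member are the highest of 9935.

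Neutrophil genes were low in these libraries. Many of them encode granule proteins that are transcribed mainly in bone marrow precursors, so a low level does not speak to mature neutrophils in the tissue. Of 12 listed neutrophil genes, 8 were under 1 TPM in every rat of each group, among them Mpo (at most 0.660 TPM) and Elane (at most 0.0900 TPM), while Camp reached 1.08 TPM and Ngp 2.50 TPM. The summed level of the 12 was 6.61 to 13.8 TPM in Control WT, 9.29 to 16.6 in Control P1.hMR, 5.60 to 8.78 in UVB WT and 9.43 to 14.7 in UVB P1.hMR. Il1r2 alone was at 5.97 to 12.7 TPM in Control WT and 4.39 to 6.39 TPM in UVB WT, so the sum is not a level of neutrophils. Csf3r, the G-CSF receptor, which mature neutrophils express, rose from at most 0.400 TPM in any control rat to between 0.510 and 2.55 TPM in UVB rats (log2 fold change 0.88 in WT and 1.22 in P1.hMR, limma adjusted p = 0.00468 and 2.82e-05). Il1r2, the other neutrophil gene tested, fell by 0.80 in WT (limma adjusted p = 0.0194). That call was lost without Control WT 2, Control WT 4, UVB WT 1 or UVB WT 2. The remaining neutrophil genes were too low to be tested. Among them, mean levels were lower under UVB in both genotypes for Fpr1, Ngp and Ltf. They were higher in both genotypes for Mpo and Mmp8, and the others did not move alike in both. Csf3r therefore does not stand for the whole list.

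Of 13 monocyte and macrophage genes, 7 were called higher by limma in each genotype and none lower, among them the scavenger receptor Cd163 (log2 fold change 2.55 and 2.66) and the mannose receptor Mrc1 (1.33 in both). Among those not called, Cd68 (-0.36 in WT and -0.29 in P1.hMR) and Lyz2 (-0.54 and -0.38) had negative values. Aif1 (0.50 and 0.51) and Itgam (0.27 and 0.13) had positive values, and Csf1r (0.02 and -0.12) and Adgre1 (0.06 and -0.19) differed little. The summed level of the 13 was 195 to 530 TPM in Control WT, 198 to 462 in Control P1.hMR, 238 to 392 in UVB WT and 337 to 467 in UVB P1.hMR. Lyz2 alone was at 85.7 to 339 TPM in Control WT and 72.2 to 114 TPM in UVB WT. Of the 5 pan-leukocyte genes, 0 were called in WT and 1, Laptm5 (0.66), in P1.hMR animals, and their summed level was 28.3 to 62.6 TPM over all rats. Of 7 fibroblast genes, 4 were called higher in WT and 3 in P1.hMR animals, led by Lum (1.89 and 1.88), with Col1a1 called lower in P1.hMR animals (-0.86). Of 4 T cell genes, Cd2 and Cd8a were called higher in both genotypes. Cd3e (-0.33 in WT and -0.26 in P1.hMR) and Cd3g (-0.29 and 0.13), parts of the T cell receptor complex, were not called. Between the UVB groups, Cd8a, a T cell co-receptor, was 1.85-fold higher with the transgene (log2 fold change 0.89, limma adjusted p = 0.0364), at 3.07 to 4.82 against 1.08 to 2.20 TPM, and was 1 of the 3 genes called in that comparison. That call remained without Control WT 1, Control WT 4, Control P1.hMR 4, UVB WT 3 or UVB P1.hMR 2, and was lost without any 1 of the 12 other rats, with a pseudocount of 0.1 (limma adjusted p = 0.197), in a fit of these 2 groups alone, with the replicate block (adjusted p = 0.165) and with the hair shaft covariate. Of 4 basal and 4 suprabasal epithelial genes, only Ivl (involucrin) was called, lower in both genotypes, and Krt17 was not called. Of 12 meibocyte genes, Elovl3 and Fabp5 were called higher and Awat2 lower in both genotypes. In WT the calls of Elovl3 and Fabp5 were lost without Control WT 4 or UVB WT 2, and that of Elovl3 also without Control WT 3 or UVB WT 3. The call of Awat2 in P1.hMR animals was lost without UVB P1.hMR 5. Of 7 skeletal muscle genes, Actn3 was called lower in both genotypes and Des higher in WT, a call lost without Control WT 3, Control WT 4, UVB WT 1 or UVB WT 2. Their part in the S100 results was not tested.

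Few receptor and partner genes of the S100 proteins passed the test. Of 7 receptor genes tested, 0 were called in WT and 1, Cd33 (0.62, limma adjusted p = 0.0182), in P1.hMR animals, a call that was lost without Control P1.hMR 3 (0.47). In WT the difference of Cd33 was 0.65 (limma adjusted p = 0.0573), and it was called without Control WT 4 (0.76), Control P1.hMR 1 (0.65), Control P1.hMR 3 (0.65) or UVB WT 2 (0.92). Tlr4 (1.71 to 3.21 TPM) and Ager, which encodes RAGE (1.36 to 3.16 TPM), were low in all rats, while Bsg, a receptor for S100A9, was at 404 to 478 TPM. Of 6 binding partners, 0 were called in WT and 1 in P1.hMR animals. That gene was Anxa1 (0.60, limma adjusted p = 0.000722), at 0.32 in WT (adjusted p = 0.118). Cacybp, which encodes a binding protein of S100A6, differed by 0.20 and 0.42, below the fold threshold, with limma adjusted p-values of 0.0299 and 1.39e-05.

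Of 7 tested cytokine genes known to induce epithelial alarmins, 2 were called higher in WT and 3 in P1.hMR animals and none lower. Il36a and Il36g, epithelial cytokines of the IL-1 family, were called in both genotypes, with log2 fold changes of 1.53 and 1.33 in WT and 2.08 and 1.49 in P1.hMR animals. Il36a was at most 0.630 TPM in control rats and between 0.980 and 6.18 TPM in UVB rats. Il1b was called in P1.hMR animals (1.35, limma adjusted p = 0.000479), against 0.53 in WT (adjusted p = 0.222). The remaining listed cytokine genes were too low to be tested. Il17a and Il17f, cytokines of type 17 T cells, were at most 0.0800 and 0.130 TPM in any rat, and Il22 at most 0.220 TPM. Il6 was at most 0.220 TPM in control rats and between 0.360 and 5.16 TPM in UVB rats. Osm was at most 0.340 TPM in control rats and between 0.370 and 1.05 TPM in UVB rats.

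Related genes outside the set were tested in the same way. Of 4 other S100 genes tested, 2 were called lower by limma in both genotypes and none higher, while S100g differed by 0.57 in WT and -1.04 in P1.hMR animals (limma adjusted p = 0.448 and 0.0580), the latter being called without Control WT 1, Control P1.hMR 3 or UVB P1.hMR 4. S100a1, known from muscle, was at 118 to 183 TPM in Control WT, 106 to 126 in Control P1.hMR, 27.2 to 85.5 in UVB WT and 19.1 to 36.3 TPM in UVB P1.hMR. It fell by 1.64 in WT and by 2.10 in P1.hMR animals on the log2 scale (limma adjusted p = 0.000797 and 5.21e-06), without overlap between UVB and control rats. S100b, a gene of glia and other cells, fell by 0.90 and 0.61 (limma adjusted p = 0.00134 and 0.00168). Of 3 tested genes for fused S100 proteins, which carry an S100 domain in a large structural protein, 1 was called lower in both genotypes and none higher. Rptn (repetin) differed by 0.45 in WT and 0.65 in P1.hMR animals (limma adjusted p = 0.318 and 0.0510). It was called higher in WT without UVB WT 2 (0.87), and in P1.hMR animals without Control P1.hMR 1, Control P1.hMR 3, UVB WT 2, UVB WT 3 or UVB P1.hMR 3 (0.65 to 0.78). The gene called was Tchh (trichohyalin), a protein of the hair follicle, at -1.21 and -1.01, and its call in WT was lost without UVB WT 1 or UVB WT 2.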

How the data were processed

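The MG RNA of 17 rats was sequenced, and the authors deposited TPM values for 17251 genes with no counts, so library depth is not known and counting error could not be given. The submitters' processing notes name FastQC, Trimmomatic, DRAGEN, Picard and the rn7 build, and the methods name STAR and RSEM. Which of them made the values is not settled in the sources used here. Groups came from the labels, and precision rests on the spread between rats, each labelled as a separate sample. Log2(TPM + 1) of the 13105 genes reaching 1 TPM in 3 or more rats was fitted with limma 3.58.1 in R 4.3.3, in 1 model over the 4 groups with a variance trend (two-sided), checked on simulated data. Correlations used exact permutation in Python 3.11.15. Krt6a, the marker first planned, was not analysed here, and Krt17 was taken in its place after the table was seen. The members, gene lists and thresholds were chosen with earlier results of these data known. From each of the 15 lists, counts and the leading called genes are named. Il1r2, Tlr4, Ager, Bsg, Cacybp, Scd, Acta1, Rptn, S100g, Il6 and Osm were named after their values were seen. So were the uncalled macrophage and T cell genes and the markers near 0. Alternatives were other pseudocounts, filters, scalings and thresholds, fits of only the 2 groups compared, no trend, sample weights, a replicate block, a hair shaft covariate and leaving out each rat.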

Additional observations from a re-analysis of the deposited data

Results flagged for a closer look

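Among 27 groups of 4 or 5 rats, 1 held a rat far from the others by Dixon's test, which flags about 1 group in 20 by chance. This was S100a8 in Control P1.hMR 3, at 1498.82 TPM against 1210.39 to 1286.27 TPM in the other 4 rats of the group, a gap of 0.716 of the whole range on the log2(TPM + 1) scale. The same rat had the highest S100a9 of its group (417 TPM) and the lowest S100a3 (62.2 TPM). Without each rat in turn, the UVB difference of S100a8 in P1.hMR rats was 0.31 to 0.42.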

How the results depend on the processing

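Depth is unknown, groups hold 3 to 5 rats, and S100a7a is near 3 TPM in control rats. With a threshold of 1 on the log2 scale, 2 members were called in WT and 1 in P1.hMR animals. With the hair shaft covariate, added after the data were seen and itself lower under UVB, 3 were called in P1.hMR animals. With no fold threshold, S100a8 in P1.hMR animals gained a call, which made 6. Leaving out each rat gave 3 to 4 called members in WT and 4 to 5 in P1.hMR animals, and 0 in the genotype and interaction comparisons. Same-numbered rats did not deviate together (median r -0.005 over 22 pairs, 0.008 over 85 others). With the replicate block, 4 members were called in WT, 5 in P1.hMR animals and 0 elsewhere. The Krt16 alternative was not run, since that gene was not analysed here. Small uncalled values changed sign, and the cause was not tested. For UVB in WT these were S100a8 at -0.04 with the hair covariate, and S100a16 at -0.02 with quantile normalization, -0.01 with sample weights and -0.08 with the hair covariate. For P1.hMR under UVB, the block gave S100a4 -0.01, S100a10 -0.04 and S100a11 -0.05, and the hair covariate gave S100a10 -0.01. Without UVB, S100a11 was -0.03 with weights and -0.01 with the block. For the interaction, S100a4 was 0.00 with weights, S100a10 was -0.03 with the block and -0.01 with the hair covariate, and S100a11 was -0.02 with quantile normalization, -0.04 with the block and -0.01 with the hair covariate. Without the 2 rats farthest from the marker median, r in UVB rats was -0.09 for S100a4 and 0.51 for S100a9 with Ptprc, and -0.30 for S100a4 and -0.19 for S100a10 with Krt17, and in control rats -0.15 for S100a10 with Krt17. With the mean of the leukocyte list, r of S100a9 was 0.04 in UVB rats. Leaving out each rat also turned signs. S100a11 ran from -0.18 to 0.01 and S100a16 from -0.04 to 0.10 for UVB in WT, and S100a11 from -0.12 to 0.01 for UVB in P1.hMR. Under UVB, the genotype difference ran from -0.09 to 0.22 for S100a4, -0.06 to 0.12 for S100a10 and -0.07 to 0.13 for S100a11. Without UVB it ran from -0.08 to 0.25 for S100a3, -0.11 to 0.04 for S100a10 and -0.06 to 0.06 for S100a11. The interaction ran from -0.17 to 0.13 for S100a4, -0.05 to 0.14 for S100a10, -0.08 to 0.11 for S100a11 and -0.14 to 0.01 for S100a16. In UVB rats, r with Ptprc ran from -0.45 to 0.09 for S100a9 and -0.09 to 0.63 for S100a10, and r with Krt17 from -0.29 to 0.41 for S100a8. In control rats, r with Krt17 ran from -0.21 to 0.30 for S100a4 and -0.08 to 0.46 for S100a10.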
